A study of Homo sapiens with 30 samples.

Results

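The comparison described here asks how far 2 Ewing sarcoma cell lines, TC32 and A673, differed in their transcriptional response to an inhibitor of BET bromodomain proteins after 3 days. For each gene the quantity is the response difference: the log2 fold change of treated over vehicle cells in TC32 minus the same fold change in A673. A positive value means that the gene ended relatively higher in TC32, through a larger rise or a smaller fall. The libraries were chosen by the line, time and treatment in their labels, and 12 of the 30 in the series belong to the comparison, 3 in each of 4 groups. The groups are TC32 with DMSO vehicle, TC32 with 5 nM BMS-986158 for 72 hours, A673 with DMSO vehicle and A673 with 5 nM BMS-986158 for 72 hours. All 4 groups carry the genotype label EWS::FLI1, the fusion oncogene of this tumour, and share 1 batch label and 1 kind of medium, RPMI1640 with serum and L-glutamine. The rest of the series holds another line, CHLA10, and later libraries of A673 and CHLA10. Each of these is a single established line, so a difference between them belongs to these lines and cannot be assigned to one feature of their genotypes. No label says that replicates came from separate cultures, and p-values here measure only the spread between libraries, which may be technical.

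BET proteins, such as BRD2 and BRD3, bind acetylated lysines on histones and recruit the kinase complex P-TEFb, which releases paused RNA polymerase II into elongation. BMS-986158 occupies their bromodomains and displaces them from chromatin, which lowers transcription from many enhancer-driven genes, while genes such as HEXIM1, an inhibitor of P-TEFb, and polyadenylated histone transcripts are known to rise. In Ewing sarcoma, EWS::FLI1 binds GGAA repeats and recruits activating complexes, so BET proteins also serve the transcription that the fusion drives.

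Total counts ran from 16083677 to 48949739 per library over the 12 libraries, and 16713 of the 33538 genes in the table had enough counts to test. Levels are given as CPM, counts scaled to each library's normalised total. All 10 listed markers of Ewing sarcoma cells were detected, with a summed level of 6345 to 6609 CPM in TC32 vehicle, 5183 to 5761 in TC32 treated, 4573 to 4894 in A673 vehicle and 3938 to 3992 in A673 treated libraries. Of the markers of other cell types, 7 of 13 epithelial, 5 of 12 haematopoietic, 6 of 9 endothelial and 9 of 12 fibroblast and muscle genes passed the filter on low counts. CD3E and MYF5 were at 0, and the summed epithelial markers, mainly KRT18 and KRT17, lay at 9.06 to 10.4 CPM in TC32 vehicle and 157 to 249 CPM in A673 vehicle libraries. Some other markers were well detected, with A673 vehicle means of 417 (COL1A1), 184 (COL3A1), 95.65 (PDGFRB), 60.0 (PAX7) and 44.8 CPM (EMCN). The TC32 vehicle means of the same genes were 6.30, 86.5, 23.2, 78.65 and 0.0222 CPM. A pair of libraries stood furthest from their groups, A673 vehicle replicate 3 and TC32 treated replicate 1. The chi-square per gene of A673 vehicle replicate 3 was 83.7 and 87.5 against the other A673 vehicle libraries, which differed from each other by 5.08. For TC32 treated replicate 1 it was 34.6 and 31.7 against 3.40. A673 treated replicate 1 stood apart less, at 14.8 and 19.1 against 3.50. Its mitochondrial share of counts was 2.83%, beside 4.7% and 4.82% in treated A673 replicates 2 and 3.

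The response difference was called for 4045 genes, 24.2% of those tested (edgeR's quasi-likelihood test, Benjamini-Hochberg adjusted p under 0.05). Of these, 2076 (12.4% of the genes tested) were higher and 1969 (11.8%) lower in TC32, and the size reached 2-fold for 829 (4.96%) and 750 (4.49%). The response itself was called for more genes in TC32, 3728 higher and 3817 lower (45.1%), than in A673, 2561 higher and 3076 lower (33.7%). The median absolute response was 0.49 in TC32 and 0.37 in A673 on the log2 scale. Before any drug the lines differed for 66.6% of genes, 5390 higher and 5740 lower in TC32 vehicle cells. Changes of at least 2-fold were fewer: 833 higher (4.98%) and 1848 lower (11.1%) in TC32, 373 higher (2.23%) and 1809 lower (10.8%) in A673, and 3020 higher (18.1%) and 3389 lower (20.3%) between vehicle cells. In bulk RNA a change in the mix of cells cannot be told apart from a change of RNA per cell.

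Most genes that responded in both lines moved the same way. Of 3096 genes called in both responses, 2720 (87.9%) shared their direction, and 2272 of those had no called difference. Over 12381 genes with a group mean of at least 1 CPM in each line, the 2 responses had a Pearson correlation of 0.55 and a Spearman correlation of 0.43 across genes, which are not independent of one another. The largest classes of called differences were the 1106 genes that rose in TC32 without a called change in A673 and the 1066 that fell in TC32 without one. In the other direction 461 genes fell and 449 rose in A673 alone. A call in one line alone did not by itself mark a difference: of 4449 genes called only in TC32 the difference was called for 2172 (48.8%), and of 2541 called only in A673 for 910 (35.8%). Genes with a group mean of at least 1 CPM in both lines made up 3691 (91.2%) of the calls, beside 12381 of the 16713 genes tested. The share of calls depended on that threshold and was 81.9% at 5 CPM. A last class of 376 genes (2.25% of those tested) was called in opposite directions, 178 rising in TC32 and falling in A673 and 198 the reverse.

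**Figure D1:**
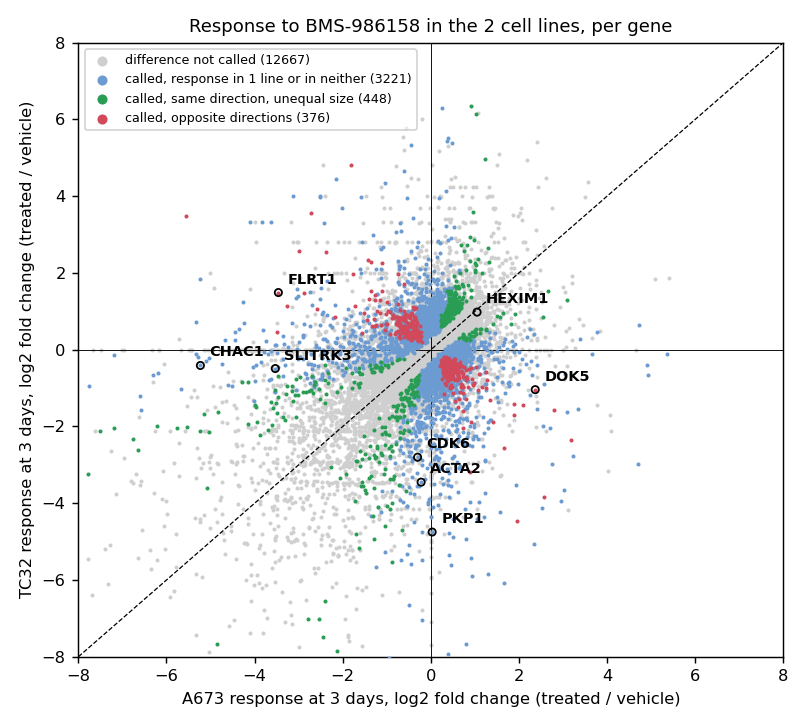
Log2 fold change of treated over vehicle cells in A673 (horizontal axis) against that in TC32 (vertical axis), 1 point per gene for 16712 genes. Of these, 20 lie beyond the axis limit of 8 in size and are not visible. Grey points had no called difference (12667 genes), and the coloured points are the called genes with a response called in at most 1 line (3221), in the same direction (448) or in opposite directions (376). The opposite-direction genes lie in the upper left and lower right quadrants, FLRT1 and DOK5 among them, while HEXIM1 lies on the diagonal. Those that rose in TC32 had a median response of 0.60 there and -0.54 in A673. Those that fell in TC32 had -0.54 there and 0.46 in A673.

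Transcript length moved with the response difference. Over 10842 well-detected genes split into 5 bins of transcript length, from a median of 1542 bases in the shortest to 7753 in the longest, the median difference went from -0.35 through -0.12, 0.02 and 0.18 to 0.41. The median TC32 response ran from -0.35 to 0.43 across the bins, while the A673 medians stayed between 0.02 and 0.09 and those of CHLA10 between -0.02 and 0.08. Within TC32 it was steeper in treated replicates 2 and 3, at -0.45 in the shortest bin in each, than in replicate 1, at -0.17. Against the other A673 vehicle libraries, replicate 3 of that group showed a trend of the same direction, from -0.14 to 0.22. Vehicle replicate 2 of TC32 did too against the other TC32 vehicle libraries, from -0.14 to 0.14, and replicate 1 the reverse, from 0.07 to -0.10. In the shortest bin 76 genes were called higher and 712 lower, and in the longest 793 and 97. When each library was corrected for length and GC content, an alternative chosen after seeing the data, 1885 genes were higher and 1644 lower, and 2754 of the 4045 calls (68.1%) were kept in their direction. Of the calls of at least 2-fold 87.2% were kept, and of the 376 opposite genes 92.8%. Whether the trend arose in the cells or in the libraries was not tested.

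**Figure D2:**
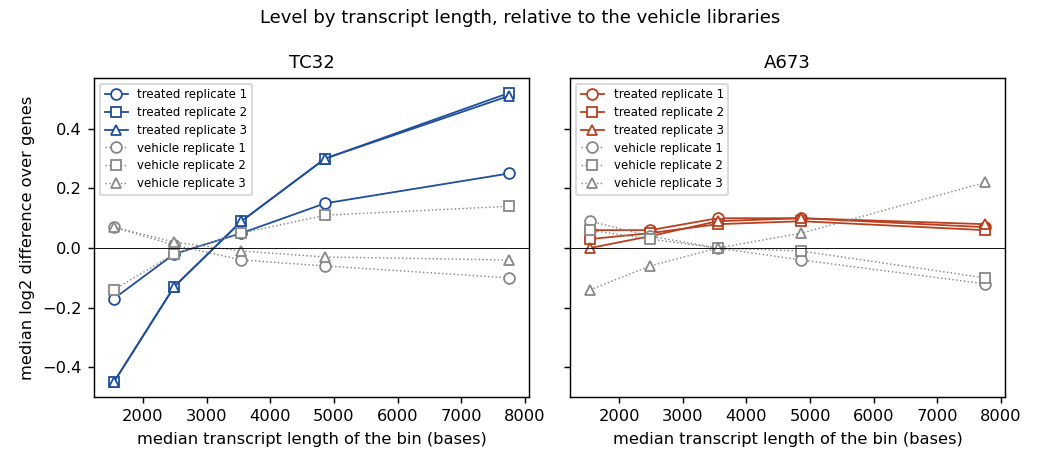
Median log2 difference over genes (vertical axis) against the median transcript length in bases of 5 bins (horizontal axis), 1 line per library, for TC32 and A673; treated libraries are set against the mean of the line's vehicle libraries, and each vehicle library against the other vehicle libraries. Treated TC32 replicates rise from -0.17, -0.45 and -0.45 in the shortest bin to 0.25, 0.52 and 0.51 in the longest, while the treated A673 replicates reach 0.07, 0.06 and 0.08 there and vehicle replicate 3 of A673 (dotted grey, as all vehicle libraries) goes from -0.14 to 0.22 and vehicle replicate 2 of TC32 from -0.14 to 0.14.

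The rise of HEXIM1, known under BET inhibition, was shared. HEXIM1 lay at 76.7, 77.5 and 73.8 CPM in TC32 vehicle and 152, 149 and 148 CPM in treated libraries, and at 44.7, 45.5 and 37.1 CPM in A673 vehicle and 84.2, 86.8 and 92.6 CPM in treated ones. It rose in both lines, with no overlap of vehicle and treated libraries in either, and its response difference was -0.07 ± 0.16 (SE, adjusted p = 0.793). Of 9 tested markers of BET inhibition, 8 rose in each line, with a median response of 1.53 in TC32 and 1.05 in A673. MYC was among the risers in each line (0.77 in TC32 and 0.45 in A673), and the list was written with earlier results of these data known. The difference was called for 2 higher and 2 lower of the 9, beside 12.4% higher and 11.8% lower over all genes tested. The lower pair, the histone genes H1-2 (-1.50) and H2BC5 (-1.12), lost their call with the length correction (adjusted p = 0.0884 and 0.316), under which 3 of the 9 were higher and none lower. Without TC32 vehicle replicate 3 none was lower, and 1 was without A673 vehicle replicate 3 or any single treated library. SESN3, which encodes a stress-induced sestrin, was higher in TC32, from 0.391, 0.543 and 0.466 to 4.50, 6.14 and 6.51 CPM against 9.58 to 15.96 and 24.7 to 26.9 CPM in A673 (difference 2.64 ± 0.50, adjusted p = 0.000572).

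BRD2 and BRD3 rose in both lines, and neither passed the test of the difference (-0.18, adjusted p = 0.327, and 0.18, adjusted p = 0.31). Of 13 BET and P-TEFb genes, 4 were higher and none lower in TC32, beside 12.4% higher and 11.8% lower over all genes tested. The elongation genes AFF4 (0.82), CCNT1 (0.63) and CCNT2 (0.58) were among the 4. These 3 lost their call with the length correction, under which 1 of the 13 was higher. The transcription factor MYC rose in both lines and showed no called difference (0.32 ± 0.14, adjusted p = 0.101), while with the length correction it was called (0.49, adjusted p = 0.0149). IGF1, a growth factor of Ewing cells that BET inhibition lowers, fell in TC32 from 28.3 to 30.8 CPM down to 2.32 to 2.56 CPM and in A673 from 23.2 to 30.7 down to 3.35 to 3.79 CPM, and its difference of -0.63 ± 0.29 did not pass the test (adjusted p = 0.119), but did with the length correction (-1.02, adjusted p = 0.0125). The differences of EWSR1 (-0.16), FLI1 (-0.10), NR0B1 (0.06) and CCND1 (0.35) were not called.

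Polyadenylated histone transcripts rose more in A673. Of 18 tested, 16 rose and 1 fell in A673 (median response 1.19), and 8 rose and 3 fell in TC32 (median 0.01). In the difference 10 were called lower and none higher (median -0.73), against 11.8% lower, 12.4% higher and a median of 0.04 over all genes. H2BC12, a core histone H2B gene, lay at 3.40, 3.90 and 9.52 CPM in TC32 vehicle and 4.55, 5.25 and 4.27 CPM in treated libraries, and at 11.0 to 21.7 and then 44.6 to 48.3 CPM in A673. Histone genes are near-identical in sequence, so reads can be split between copies. The mean log2 CPM of the list was 4.56, 4.46 and 5.33 in the TC32 vehicle libraries, and without vehicle replicate 3 of TC32, 7 of the 18 were lower. With the length correction 4 were, H2BC12 no longer among them.

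Genes of the G1/S transition and DNA replication fell in TC32, and few of them changed by the test in A673. Of 30 tested, 26 fell and none rose in TC32 (median response -0.76), while 6 fell and 2 rose in A673 (median -0.01). The response difference was lower in TC32 for 23 and higher for none, with a median of -0.79. Over all genes tested 11.8% were lower and 12.4% higher. Many genes of this class are targets of E2F factors, which bind TTTNNCGC (N being any base) and switch on replication genes late in G1. The promoters of E2F1 and MCM6 are shown since both genes are in the list and each holds 4 matches on either strand of the 250 bases before its start (RefSeq, GRCh38.p14). E2F1 encodes a transcription factor of the family itself (chr20:33686386-33686635, minus strand), and MCM6 a subunit of the replicative helicase (chr2:135876444-135876693, minus strand). Capitals mark the matches, some of which overlap each other, and none overlaps the other motifs searched alongside on both strands: the ATF4 core TGATGNAA, the GGAA repeat GGAAGGAA (in 2.99% of all promoters) and the E-box CACGTG (in 6.49%).
E2F1: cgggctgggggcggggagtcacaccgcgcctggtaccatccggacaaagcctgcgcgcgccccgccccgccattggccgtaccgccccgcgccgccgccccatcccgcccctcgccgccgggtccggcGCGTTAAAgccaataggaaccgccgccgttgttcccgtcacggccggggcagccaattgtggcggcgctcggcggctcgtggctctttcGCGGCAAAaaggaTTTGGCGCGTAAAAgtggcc
MCM6: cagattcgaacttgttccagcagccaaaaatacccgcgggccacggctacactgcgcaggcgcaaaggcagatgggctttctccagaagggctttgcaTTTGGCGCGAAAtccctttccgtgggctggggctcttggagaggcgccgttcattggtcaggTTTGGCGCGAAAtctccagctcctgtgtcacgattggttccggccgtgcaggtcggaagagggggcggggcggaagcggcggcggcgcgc
Matches occurred in 12 of the 26 promoters of this list that were in the table (46.2%) and in 10 of the 21 of called genes (47.6%), beside 8.55% of the promoters of genes tested and 5.93% of all 27305 promoters. A match is a description of the letters and not a measured binding site.

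E2F1 itself lay at 112, 111 and 108 CPM in TC32 vehicle and 65.9, 50.3 and 54.9 CPM in treated libraries, and at 106, 127 and 135 CPM in A673 vehicle and 117, 137 and 135 CPM in treated libraries. The TC32 groups were apart and the A673 groups overlapped, with a difference of -1.03 ± 0.18 (adjusted p = 0.000201). CCNE1, the cyclin that drives CDK2 at G1/S, went from 9.10, 8.54 and 9.59 to 4.60, 5.25 and 5.17 CPM in TC32 and was 8.25, 8.82 and 9.28 and then 12.1, 11.6 and 11.6 CPM in A673. Its difference was -1.27 ± 0.29 (adjusted p = 0.00215). FEN1, the flap endonuclease of lagging-strand synthesis, fell from 142 to 153 CPM down to 65.4 to 83.5 CPM in TC32, and in A673 its treated libraries at 149 to 157 CPM lay within the vehicle range of 117 to 171 CPM (difference -1.18 ± 0.16, adjusted p = 1.21e-05). Helicase subunits were lower too, among them MCM5 (-0.84 ± 0.14, adjusted p = 9.26e-05), which fell in both lines, and MCM6 (-0.40 ± 0.11, adjusted p = 0.0104), which fell from 190 to 195 CPM down to 127 to 135 CPM in TC32 alone. The clamp PCNA (-0.94) and the S-phase enzymes TK1 (-0.94), TYMS (-0.88) and RRM2 (-0.88) were also lower. Over the 12 fits that each left out 1 library, 21 to 25 of the 30 were lower. With A673 vehicle replicate 3 as the only A673 vehicle library, an alternative explained below with the ATF4 genes, 15 were.

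The regulators of the same transition divided. CDK6 (chr7:92604921-92836594, minus strand), a kinase that phosphorylates RB1 with the D cyclins, was at 15.01, 14.2 and 13.5 CPM in TC32 vehicle and 1.48, 1.72 and 2.93 CPM in treated libraries. In A673 it was at 26.8, 27.0 and 24.1 CPM and then 21.03, 22.4 and 19.9 CPM, a change that did not pass the test (-0.30, adjusted p = 0.279). The response difference of -2.50 ± 0.33 did (adjusted p = 8.53e-06), in every refit. CDK2 (-0.72) and CDK4 (-0.42) were lower as well, while the CDK inhibitors CDKN2D (0.76) and CDKN1B (0.53) and the RB family member RBL2 (0.72) were higher in TC32. CDKN1A, which encodes p21, was at 124 to 136 CPM and then 67.6 to 76.3 CPM in TC32 against 58.9 to 145 and 169 to 175 CPM in A673, with a difference of -1.48 ± 0.58 that did not pass (adjusted p = 0.0671). Among 25 tested genes of G2/M and mitosis, 10 were lower and none higher (median -0.36), beside 11.8% and 12.4% over all genes tested. The survivin gene BIRC5 led them, falling from 199 to 219 CPM down to 96.4 to 104 CPM in TC32 (difference adjusted p = 2.56e-05). The ubiquitin-conjugating enzyme gene UBE2C (-0.71) and CDC20 (-0.70) followed. With the length correction 22 of the G1/S and 6 of the G2/M genes were lower, and UBE2C, CDC20 and CDK4 lost their call.

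Most genes of MHC class I presentation fell in TC32, and fewer of them were called lower in A673. Of 17 tested, 15 fell in TC32 (median -1.31), against 3 that fell and 2 that rose in A673 (median -0.39). The peptide transporter subunit TAP2, the loading factor TAPBP and the immunoproteasome subunit PSMB8 were those that fell in A673 (-1.06, -0.62 and -1.57). They fell in TC32 as well (-1.31, -0.44 and -2.13) with no called difference. PSMB8 was under 1 CPM in every A673 library, highest in vehicle replicate 3, with 14 counts in all in the treated ones. The difference was lower for 8 and higher for none (median -0.78), beside 11.8% and 12.4% over all genes tested. The count was also 8 in each of the 12 fits that left out a library and with the length correction. HLA-B, a heavy chain that displays peptides to T cells, was at 156, 159 and 155 CPM in TC32 vehicle and 57.3, 40.2 and 46.4 CPM in treated libraries. In A673 it was at 42.7, 43.6 and 17.4 CPM and then 51.5, 49.2 and 46.2 CPM, a change that did not pass the test (adjusted p = 0.134). The difference between the lines was -2.21 ± 0.36 (adjusted p = 0.000163). The TC32 groups did not overlap, and the treated A673 libraries lay above the vehicle ones, of which the third was the lowest. HLA-C, another heavy chain, fell from 51.6 to 62.2 CPM down to 15.3 to 21.6 CPM in TC32 and was at 79.3 to 115 and then 111 to 125 CPM in A673 (-1.87 ± 0.30, adjusted p = 9.67e-05). The shared light chain B2M (-0.69), the peptide-trimming enzymes ERAP1 (-1.13) and ERAP2 (-3.09) and the loading chaperones CALR (-0.84) and PDIA3 (-0.86) were lower too. ERAP2 was at 45.5 to 56.9 CPM in TC32 vehicle cells and under 1 CPM in all A673 libraries. HLA genes are polymorphic and alike in sequence, so reads may have been shared between them. Of 28 interferon-stimulated genes tested, 19 fell in TC32 and 13 in A673. The difference was called for 3, a share below the 24.2% of all genes tested. All 3 were lower: IFI35 (-1.73), IFITM2 (-1.43) and IFITM3 (-1.01). With the length correction none of the 3 was called (adjusted p = 0.0597, 0.201 and 0.338). None was lower without TC32 treated replicate 2 or 3, and 1 was without TC32 vehicle replicate 1 or 3 or A673 vehicle replicate 3.

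Endoplasmic reticulum chaperones fell in TC32 and some rose in A673. Of 20 tested, 12 fell and 3 rose in TC32, and 3 fell and 5 rose in A673. In the difference 10 were lower and 2 higher (median -0.51), beside 11.8% and 12.4% over all genes tested. Of the 20, 5 were called in opposite directions, beside 2.25% of all genes tested. HSPA5, the central folding chaperone BiP, fell from 536 to 556 CPM down to 362 to 382 CPM in TC32 and rose from 418 to 577 CPM up to 639 to 750 CPM in A673 (difference -1.09 ± 0.28, adjusted p = 0.00674). MANF, a secreted stress factor, fell from 91.5, 80.4 and 90.7 to 61.6, 46.0 and 44.4 CPM in TC32 and rose from 32.7, 32.3 and 34.3 to 52.2, 50.6 and 48.0 CPM in A673 (-1.39 ± 0.19, adjusted p = 1.42e-05). PDIA6, a disulphide isomerase, fell in TC32 alone (-1.22 ± 0.15, adjusted p = 2.09e-06). EDEM1, which helps to clear misfolded proteins, and SEL1L, part of the same disposal pathway, were the 2 that were higher, at 1.03 and 0.40, the call of SEL1L being lost in 9 of the 12 fits that left out a library. With the length correction 8 were lower and 1 higher.

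A similar split was seen for MYC targets and ribosome biogenesis. Of 28 tested, 12 fell and 1 rose in TC32, and 1 fell and 10 rose in A673. The difference was lower for 15 and higher for 1 (median -0.59), beside 11.8% and 12.4% over all genes tested. FBL, which methylates ribosomal RNA, fell from 553, 441 and 527 to 352, 259 and 262 CPM in TC32 and was 467, 430 and 299 and then 481, 482 and 471 CPM in A673 (-1.06 ± 0.17, adjusted p = 0.0001). NOP56, a core protein of the same particles, rose in A673 from 277 to 327 CPM up to 458 to 464 CPM and was at 406 to 436 and then 339 to 404 CPM in TC32 (-0.85 ± 0.14, adjusted p = 8.89e-05). HSPE1, the mitochondrial co-chaperonin, was lowest of the list at -1.94 ± 0.27 (adjusted p = 2.22e-05), and CAD, the first enzyme of pyrimidine synthesis, was the 1 that was higher (0.71). With the length correction 13 were lower and 2 higher. Cytosolic ribosomal protein genes, which have short transcripts and many pseudogene copies, were lower for 12 of 35 (median -0.33), beside 11.8% over all genes. That count went from 1 without TC32 treated replicate 2 or 3 to 22 without replicate 1, and with the length correction 1 was lower and 5 higher (median 0.05), so the direction of this group depended on the processing. Oxidative phosphorylation genes were called for 4 higher and 4 lower of 30, a share near the 24.2% of all genes tested. With the correction 9 were higher and 2 lower.

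Genes of the amino-acid stress response governed by the transcription factor ATF4 had the highest median difference of the 46 lists, and it moved with the choice of A673 vehicle libraries. Of 29 tested, 17 were higher and none lower in TC32, with a median of 1.21, beside 12.4% higher and 11.8% lower over all genes tested. The change was in A673, where 27 fell (median -1.47), against 10 that fell in TC32 (median -0.41). In vehicle cells 23 of the 29 were lower in TC32 than in A673 (median -1.61), with 66.6% of all genes called. The promoters of CHAC1 and ASNS are shown because each holds 1 match, on either strand, to the core of the element that ATF4 binds, TGATGNAA. CHAC1 encodes an enzyme that degrades glutathione (chr15:40953221-40953470, plus strand), and ASNS makes asparagine (chr7:97872409-97872658, minus strand). The sequences are the 250 bases before each start (RefSeq, GRCh38.p14) with the match in capitals, which lies 209 to 202 bases before the start on the other strand in CHAC1 and 68 to 61 bases before it on the gene's strand in ASNS. Neither match overlaps another motif searched, and GENCODE 29 has CHAC1 start at 40952962, upstream of the RefSeq start used here.
CHAC1: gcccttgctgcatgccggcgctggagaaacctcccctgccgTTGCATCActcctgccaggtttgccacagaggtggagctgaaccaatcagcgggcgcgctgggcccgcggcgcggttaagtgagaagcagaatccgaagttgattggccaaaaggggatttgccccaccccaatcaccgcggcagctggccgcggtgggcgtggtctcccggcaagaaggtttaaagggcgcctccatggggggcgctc
ASNS: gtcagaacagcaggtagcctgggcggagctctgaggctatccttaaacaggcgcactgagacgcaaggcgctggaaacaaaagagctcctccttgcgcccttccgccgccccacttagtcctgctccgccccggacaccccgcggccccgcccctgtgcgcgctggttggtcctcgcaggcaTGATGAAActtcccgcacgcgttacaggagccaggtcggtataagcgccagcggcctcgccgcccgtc
The core was found in 3 of the 23 promoters of the list that were in the table (13%), beside 1.61% of promoters of genes tested and 3.19% of all promoters. As above, the letters are a description only.

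The A673 vehicle libraries disagreed on these genes. CHAC1 was at 75.6, 59.7 and 4.22 CPM in A673 vehicle replicates 1, 2 and 3 and 1.08, 0.797 and 1.68 CPM in treated ones. In TC32 it was at 5.19, 7.99 and 6.39 CPM and then 5.39, 4.47 and 4.85 CPM, so A673 vehicle replicate 3 lay below every TC32 vehicle library and replicates 1 and 2 far above. Its difference was 4.81 ± 0.90 (adjusted p = 0.000576). ASNS was at 767, 565 and 81.8 CPM in A673 vehicle and 87.2 to 90.7 CPM in treated libraries, against 63.9 to 67.1 and 74.4 to 90.3 CPM in TC32 (2.69 ± 0.57, adjusted p = 0.00184). PSAT1, of serine synthesis, was at 803, 617 and 171 CPM and then 117 to 136 CPM in A673, against 146 to 161 and 106 to 114 CPM in TC32 (1.64 ± 0.42, adjusted p = 0.00667). The pseudokinase gene TRIB3 followed the same order, at 393, 200 and 51.0 CPM in A673 vehicle and 17.1 to 19.8 CPM in treated libraries (2.48 ± 0.54, adjusted p = 0.00204). Summed over the list, A673 vehicle replicates 1 to 3 held 9421, 7278 and 3183 CPM, the treated A673 libraries 2454 to 2456, TC32 vehicle 3028 to 3152 and TC32 treated 2180 to 2436. The vehicle cells of A673 collected with the 20-day samples held 3698 to 3864 CPM, nearer to replicate 3.

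Several counts were therefore set beside fits with other A673 vehicle libraries, an alternative chosen after seeing the data. Without replicate 3, 20 of the 29 ATF4 genes were higher and none lower (median 1.57). With replicate 3 alone, 2 were higher (ATF5 and ALDH1L2), 3 were lower (SESN2, PHGDH and WARS1), and the median was 0.07. The difference of CHAC1 was then 1.37 (adjusted p = 0.121), of ASNS 0.17 (adjusted p = 0.61), of PSAT1 0.02 and of TRIB3 0.42. The lipoprotein receptor gene VLDLR went from 3.85 to 0.39 and the hormone gene ADM2 from 2.88 to 0.63. A single library stands for the A673 vehicle cells in that fit and is assumed to vary like the other groups. Fewer ER chaperones and MYC targets were lower in that fit than with all libraries. Among MHC class I genes CALR and ERAP1 lost their call. HLA-E and HLA-F, not called with all libraries (-0.16 and -0.27), gained one. Of the called genes named outside the ATF4 list, 17 lost their call in that fit: BAK1, BCL2L13, CALR, CDC20, CDKN1B, CDKN2D, DLL1, ERAP1, FRG2, HOXC11, HSPA5, LIPI, MCM6, PPM1E, PTK2, RBL2 and ZNF354C. Mitochondrial transcripts also differed among these libraries, at 5.31%, 5.53% and 2% of counts in replicates 1, 2 and 3, and the part of either in the response difference was not tested.

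**Figure D3:**
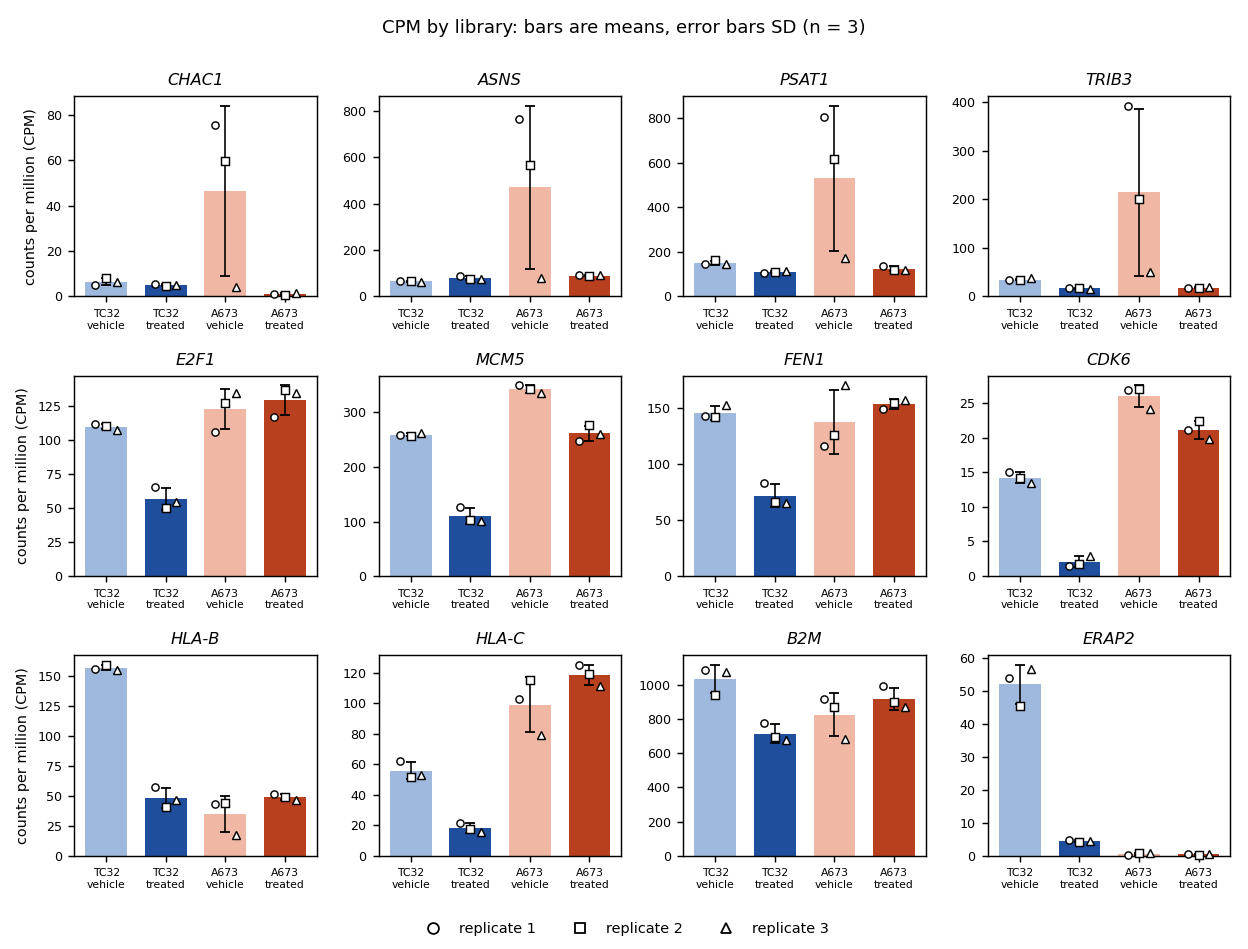
CPM in each of the 12 libraries for 12 genes of the ATF4, G1/S, CDK and MHC class I groups, by line and treatment; bars are means, error bars SD (n = 3), and marker shapes give the replicate number. In the ATF4 panels A673 vehicle replicate 3 lies apart from replicates 1 and 2 (4.22 against 75.6 and 59.7 CPM for CHAC1), whereas in the CDK6 panel all treated TC32 libraries lie at 1.48 to 2.93 CPM below every other library.

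Smooth muscle genes were lower in TC32 where they were called, and matrix genes were more often lower than higher. Of 18 smooth muscle contractile genes tested, 12 fell in TC32 (median -1.84), and 4 fell and 4 rose in A673 (median -0.43). In the difference 7 were lower and none higher (median -0.63), beside 11.8% and 12.4% over all genes tested. ACTA2, smooth muscle actin, fell from 137, 149 and 140 to 11.5, 13.8 and 13.8 CPM in TC32 and was 25.9, 24.4 and 16.9 and then 17.9, 20.4 and 19.0 CPM in A673. Its vehicle level in TC32 was above, and its treated level below, every A673 library, with a difference of -3.22 ± 0.55 (adjusted p = 0.000284). The tropomyosin gene TPM1 (-2.45 ± 0.56, adjusted p = 0.00327) fell in TC32, at 24.7 to 31.6 and then 40.2 to 44.9 CPM in A673. Of 29 collagen genes 8 were lower and 1, COL9A2, higher (2.44), beside 11.8% lower and 12.4% higher over all genes tested. COL3A1, of fibrillar type III collagen, fell from 80.8 to 91.1 CPM down to 3.21 to 6.77 CPM in TC32 and was at 136 to 246 and then 123 to 133 CPM in A673 (-3.55 ± 0.49, adjusted p = 3.6e-05). FBN1, the microfibril protein fibrillin, differed the other way round: it rose in A673 from 28.7 to 38.8 CPM up to 91.0 to 108 CPM, with no called change in TC32 (-1.94 ± 0.34, adjusted p = 0.000286). Matrix glycoproteins were lower for 7 and higher for 2 of 35, the laminin gene LAMB3 (1.49) and the perlecan gene HSPG2 (1.42), and with the length correction for 6 and 1. Matrix proteases and their inhibitors were lower for 6 and higher for 2 of 35. ADAMTS4, an aggrecan-cleaving protease, was higher, rising from 83.8 to 92.8 CPM up to 140 to 156 CPM in TC32 and falling from 36.4 to 42.4 CPM down to 13.5 to 15.3 CPM in A673 (2.23 ± 0.15, adjusted p = 1.03e-10). Integrin genes were lower for 3 of 16. The shares called among matrix glycoproteins, proteases and integrins were near or below the 24.2% of all genes tested (12.4% higher and 11.8% lower).

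Of 29 genes that EWS::FLI1 activates, 18 fell in TC32 and 14 in A673, and the difference was called for 2 higher and 4 lower (median -0.25), a share near the 24.2% of all genes tested. The higher pair were PAPPA, a protease that frees IGF from its binding proteins (1.85 ± 0.36, adjusted p = 0.000696), and the lipid enzyme gene KDSR (0.79), and both fell more in A673. LIPI, a lipase of Ewing cells, fell in TC32 alone, from 77.6 to 87.6 CPM down to 27.0 to 28.1 CPM (-1.39 ± 0.34, adjusted p = 0.00483). Of 20 genes that the fusion represses, 9 fell in TC32 and 3 in A673, and 6 were lower and none higher in the difference (median -0.76), beside 11.8% lower over all genes. That count was 4 or 5 in each fit that left out a library and 4 with the length correction. TNC, the matricellular protein tenascin-C, fell in both, from 364 to 387 CPM down to 19.9 to 39.4 CPM in TC32 and from 641 to 901 CPM down to 279 to 296 CPM in A673 (-2.16 ± 0.54, adjusted p = 0.006).

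Growth factor and adhesion signalling genes differed in both directions. The IGF axis had 9 higher and 4 lower of 20 tested genes (median 0.79), beside 12.4% higher and 11.8% lower over all genes tested. The insulin receptor INSR rose in TC32 from 17.1 to 22.8 CPM up to 25.7 to 34.3 CPM and fell in A673 from 79.3 to 98.9 CPM down to 47.0 to 54.7 CPM (1.23 ± 0.20, adjusted p = 9.26e-05), and the adaptor IRS1 followed it (0.87 ± 0.18, adjusted p = 0.000931). IGF1R, the receptor that signals for IGF1, rose in TC32 (0.97 ± 0.33, adjusted p = 0.035), a difference that lost its call in 8 of the 12 fits leaving out a library and with the length correction. Binding proteins divided: IGFBP4 fell in A673 from 24.3 to 31.2 CPM down to 5.04 to 5.74 CPM and less in TC32 (2.02 ± 0.22, adjusted p = 5.49e-07), and IGFBP3 fell in TC32 from 18.4 to 21.8 CPM down to 4.32 to 5.34 CPM (-2.68 ± 0.59, adjusted p = 0.00182). IGFBP6 and IGFBP7 also fell in TC32, to under 1 CPM, and were low in A673.

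PTK2, which encodes focal adhesion kinase, the protein named in the title of the series, was at 145, 176 and 155 CPM in TC32 vehicle and 177, 200 and 201 CPM in treated libraries. In A673 it was at 194, 199 and 192 CPM and then 190, 175 and 182 CPM. The difference of 0.38 ± 0.12 passed the test (adjusted p = 0.0274), and lost its call in 7 of the 12 fits leaving out a library and with the length correction (0.26, adjusted p = 0.102). Its paralogue PTK2B differed more, at 30.1 to 38.6 and then 41.3 to 47.5 CPM in TC32 against a fall from 7.96 to 13.4 CPM down to 3.13 to 5.08 CPM in A673 (1.70 ± 0.28, adjusted p = 8.98e-05). Over 28 genes of focal adhesion kinase and adhesion signalling, 7 were higher and 2 lower, beside 12.4% and 11.8% of all genes tested. With the length correction 4 were higher and 5 lower. Among receptor tyrosine kinases 3 were higher and 1 lower of 26, a share below the 24.2% of all genes tested, and 3 and 2 with the correction. The collagen receptor DDR1 rose in TC32 from 183 to 205 CPM up to 339 to 368 CPM and fell in A673 from 103 to 135 CPM down to 77.8 to 91.3 CPM (1.43 ± 0.17, adjusted p = 1.76e-06). KIT, the receptor for stem cell factor, fell in TC32 from 165 to 185 CPM down to 63.7 to 85.7 CPM and rose in A673 from 39.5 to 51.6 CPM up to 54.1 to 59.6 CPM (-1.47 ± 0.17, adjusted p = 1.48e-06).

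Notch genes were higher in TC32 where they were called. Of 18 Notch genes 5 were higher and none lower, beside 12.4% higher and 11.8% lower over all genes tested. NOTCH3 was at 37.8 to 42.9 and then 45.8 to 61.1 CPM in TC32 and fell in A673 from 114 to 194 CPM down to 50.01 to 55.96 CPM (1.94 ± 0.40, adjusted p = 0.00143), and NOTCH1 rose in TC32 (0.87 ± 0.20, adjusted p = 0.00194). The ligand DLL1 was listed at 0 in all TC32 vehicle libraries and at 8 counts in all in the treated ones, so no fold is given. Of 39 axon guidance genes 8 were higher and 4 lower, and with the length correction 5 and 5. ROBO1, a receptor for SLIT ligands, rose in TC32 from 30.1, 35.0 and 32.9 to 83.2, 102 and 94.8 CPM and was 62.7 to 67.7 and then 73.7 to 78.5 CPM in A673 (1.30 ± 0.12, adjusted p = 5.84e-08). The ephrin receptors EPHA3 (1.26 ± 0.27, adjusted p = 0.00165) and EPHA4 (1.12 ± 0.17, adjusted p = 6.31e-05) rose in TC32 alone.

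HOX genes, which set position along the body axis and are known to be active in Ewing cells, differed in both directions. The difference was higher for 5 and lower for 5 of 33 tested, beside 12.4% higher and 11.8% lower over all genes tested. Within the HOXD cluster 3 neighbours moved in opposite directions in the lines. HOXD10 fell from 41.3, 41.9 and 39.4 to 18.1, 16.9 and 20.96 CPM in TC32 and rose from 61.9, 67.1 and 51.6 to 96.8, 99.2 and 101 CPM in A673 (-1.85 ± 0.23, adjusted p = 5.12e-06). HOXD9 (-1.62 ± 0.32, adjusted p = 0.000711) and HOXD11 (-1.35 ± 0.27, adjusted p = 0.000784) did likewise, with no overlap of vehicle and treated libraries in either line. Of the HOXC cluster, HOXC12 was at 51.9 to 57.7 and then 38.8 to 43.7 CPM in TC32 and fell in A673 from 3.29 to 12.3 CPM down to 0.911 to 1.31 CPM (2.24 ± 0.48, adjusted p = 0.00153). HOXC11 fell in A673 as well (1.61 ± 0.34, adjusted p = 0.00134). With A673 vehicle replicate 3 as the only A673 vehicle library 2 were higher and 7 lower, HOXC11 no longer among the calls, and with the length correction 7 were higher and 3 lower.

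Genes of cell death were mostly lower where they differed. Of 19 BCL2 family genes 5 were lower and 1, BCL2L13, higher (0.48), and with the length correction 5 and none. Over all genes tested 11.8% were lower and 12.4% higher. The pore-forming effector BAX fell from 183, 161 and 203 to 101, 74.6 and 76.3 CPM in TC32 and was 85.6, 81.2 and 79.0 and then 77.6, 89.1 and 82.4 CPM in A673 (-1.14 ± 0.15, adjusted p = 8.96e-06). Its activator BID fell from 19.2 to 21.6 CPM down to 5.01 to 7.71 CPM in TC32 (-1.66 ± 0.29, adjusted p = 0.000193). The death-promoting BOK (-1.72), BAD (-1.54) and BAK1 (-0.54) were lower too. Over 25 p53 targets 5 were lower and 2 higher, a share near the 24.2% of all genes tested, and 6 and 1 with the length correction. MDM2, the ligase that degrades p53, was not called (0.31 ± 0.18, adjusted p = 0.222). With A673 vehicle replicate 3 alone CDKN1A (-2.40, adjusted p = 0.0269) and MDM2 (0.74, adjusted p = 0.00114) were called.

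**Figure D4:**
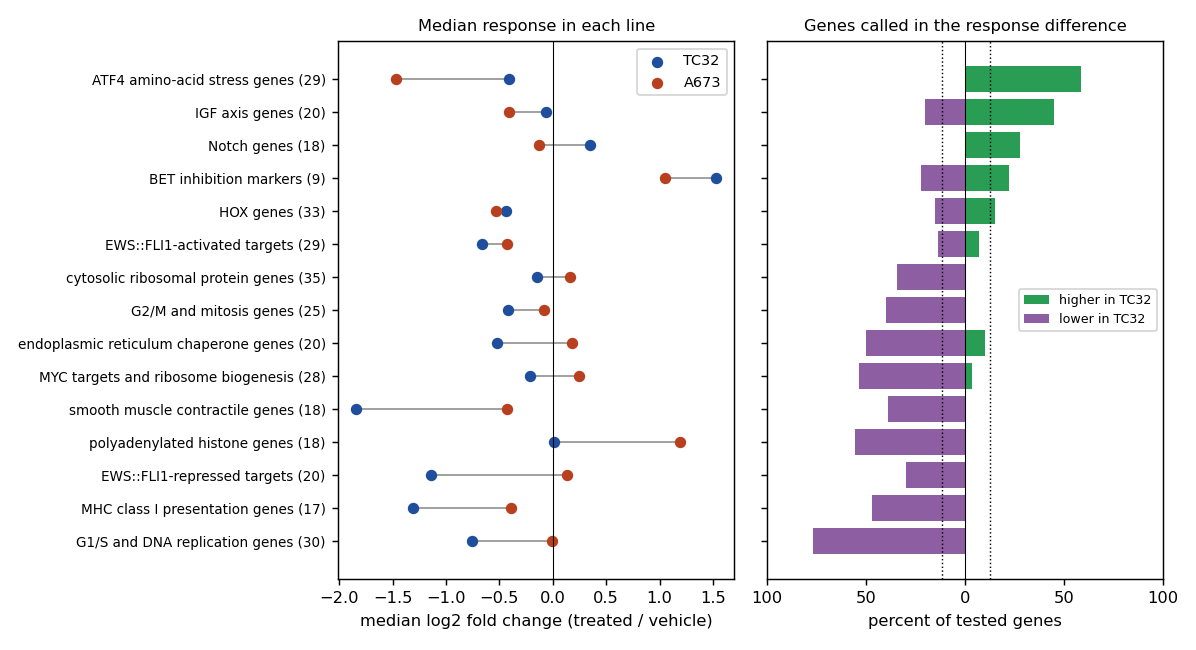
For 15 gene groups, the median log2 response in TC32 and in A673 (left) and the percent of tested genes whose response difference was called higher or lower in TC32 (right), with dotted lines at the percentages over all genes (12.4% higher and 11.8% lower). The G1/S group stands at a median of -0.76 in TC32 and -0.01 in A673, the ATF4 group at -0.41 and -1.47.

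The genes that moved in opposite directions were named by a rule that took, each way, the 10 whose smaller absolute log2 change was largest. FLRT1 (chr11:64103188-64119173, plus strand), a cell-surface adhesion protein that binds FGF receptors, was at 2.79, 3.50 and 4.79 CPM in TC32 vehicle and 11.2, 10.8 and 9.17 CPM in treated libraries. In A673 it was at 19.5, 14.3 and 2.23 CPM and then 1.02, 1.04 and 1.15 CPM, so the groups did not overlap in either line, but A673 vehicle replicate 3 was nearer to the treated libraries. The difference of 4.95 ± 0.76 (adjusted p = 7.35e-05) was the highest among genes expressed in both lines with a mean log2 CPM of at least 2, and with A673 vehicle replicate 3 alone it was 2.54 (adjusted p = 0.00773) and the fall in A673 lost its call (-1.04, adjusted p = 0.2). CPEB2, which binds messenger RNA tails, rose in TC32 from 49.1, 59.5 and 48.9 to 90.7, 111 and 113 CPM and fell in A673 from 44.1, 46.3 and 68.3 to 23.5, 20.8 and 24.0 CPM (2.21 ± 0.31, adjusted p = 2.75e-05). TLR5, the receptor for bacterial flagellin, rose from 4.93 to 5.13 CPM up to 11.1 to 13.8 CPM and fell from 2.59 to 4.04 CPM down to 1.25 to 1.83 CPM (2.44 ± 0.43, adjusted p = 0.000227). TCP11L2 (2.73), ANKRD24 (2.89), TEX19 (2.56), APC2 (2.24), HDAC9 (2.48) and the protocadherin gene DCHS1 (2.00) followed the same pattern. POMK, a kinase of dystroglycan glycosylation, was the exception in its libraries, since A673 vehicle replicate 3 at 18.3 CPM carried the fall against 2.46 and 3.06 CPM. Without that library its difference was 1.14 (adjusted p = 0.021) and its A673 response 0.29 (adjusted p = 0.441). The A673 fall of DCHS1 also lost its call without it (-0.71, adjusted p = 0.152), and those of ANKRD24, TCP11L2, TEX19, TLR5 and APC2 did with it as the only A673 vehicle library, while their differences stayed called.

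In the reverse direction DOK5 (chr20:54475597-54651171, plus strand), an adaptor of receptor tyrosine kinases, fell in TC32 from 20.9, 24.4 and 18.8 to 11.2, 9.72 and 10.3 CPM and rose in A673 from 0.648, 0.541 and 0.717 to 3.01, 2.87 and 3.97 CPM (-3.41 ± 0.48, adjusted p = 3.28e-05). DDAH1, which degrades inhibitors of nitric oxide synthase, fell from 51.1, 65.4 and 66.9 to 29.4, 36.6 and 34.6 CPM and rose from 31.2, 33.3 and 49.9 to 76.2, 73.8 and 74.2 CPM (-1.83 ± 0.34, adjusted p = 0.000516). In both genes vehicle and treated libraries were apart in each line. ACTN2, a sarcomeric actinin, fell from 30.03 to 40.1 CPM down to 18.4 to 19.9 CPM and rose from 17.6 to 24.7 CPM up to 37.4 to 46.5 CPM (-1.88 ± 0.37, adjusted p = 0.000846). SOCS1, which restrains cytokine signalling, differed by -2.10, the calcium-binding S100A10 by -2.26, the matrix gene MATN2 by -1.71, EVA1B by -1.60 and the respiratory subunit NDUFB2 by -1.56. TYW1B (-2.64) has a near-identical copy, TYW1, with which its reads may have been shared. With A673 vehicle replicate 3 alone the A673 rises of S100A10, SOCS1, DDAH1 and MATN2 lost their call, and those of S100A10 and SOCS1 did without that library too, while their differences stayed called.

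**Figure D5:**
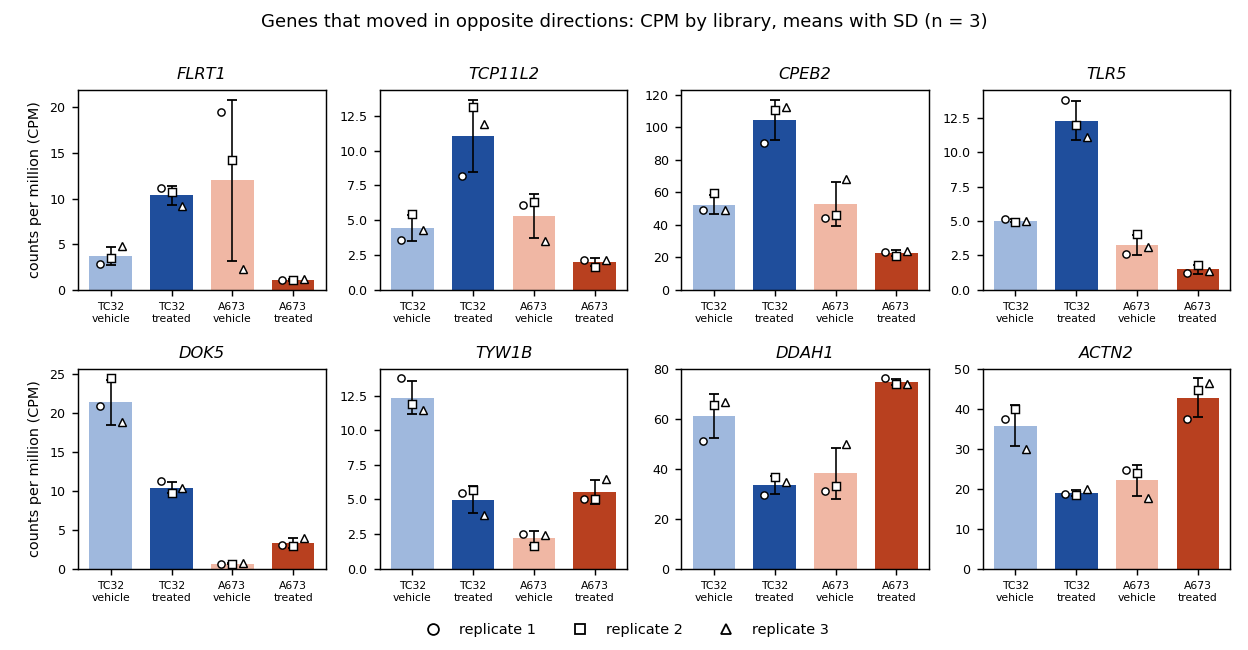
CPM in each of the 12 libraries for 8 genes called in opposite directions in the lines, 4 rising in TC32 and falling in A673 (FLRT1, TCP11L2, CPEB2, TLR5) and 4 the reverse (DOK5, TYW1B, DDAH1, ACTN2); bars are means, error bars SD (n = 3), and marker shapes give the replicate number. Vehicle and treated libraries do not overlap in either line, and for FLRT1 A673 vehicle replicate 3 (2.23 CPM) lies near the treated libraries.

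Beyond the lists, the genes with the highest differences included several that fell in A673 without a called change in TC32. SLITRK3, a synaptic adhesion protein, was at 34.8, 38.6 and 36.9 CPM and then 23.1, 26.4 and 28.95 CPM in TC32, and fell in A673 from 3.95, 5.66 and 6.30 to 0.625, 0.319 and 0.466 CPM (3.03 ± 0.36, adjusted p = 1.78e-06). TLE2, a transcriptional co-repressor, fell in A673 from 108, 130 and 121 to 10.2, 13.0 and 12.7 CPM and was 146 to 156 and then 101 to 141 CPM in TC32 (2.93 ± 0.50, adjusted p = 0.00028). The microtubule-associated MAP7D2 (3.25 ± 0.30, adjusted p = 5.84e-08), the homeobox gene NKX2-4 (3.01 ± 0.31, adjusted p = 2.96e-07) and the blood group gene XG (3.57 ± 0.57, adjusted p = 0.000108) also fell in A673 with no called change in TC32. FAT4, a large protocadherin, rose in TC32 from 94.7 to 111 CPM up to 150 to 213 CPM and fell in A673 from 39.1 to 97.5 CPM down to 11.2 to 14.7 CPM (3.03 ± 0.47, adjusted p = 0.000115). PHF7 rose in TC32 and fell in A673 (2.71), and ALDH1L2, a mitochondrial folate enzyme of the ATF4 list, fell in A673 (2.86).

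The genes with the lowest differences mostly fell in TC32. LMCD1, a LIM-domain co-regulator, fell from 85.8, 98.4 and 91.4 to 11.1, 11.4 and 11.4 CPM in TC32 and was 0.825 to 2.64 and then 2.07 to 3.52 CPM in A673 (-3.70 ± 0.43, adjusted p = 2.85e-06). SCG2, a secretogranin of neuroendocrine granules, fell from 55.4 to 60.3 CPM down to 3.31 to 5.11 CPM in TC32 and was 15.1 to 21.1 and then 12.6 to 14.8 CPM in A673 (-3.38 ± 0.38, adjusted p = 8.09e-07). ADM, the vasodilator adrenomedullin, fell in TC32 from 22.1 to 27.4 CPM down to 2.70 to 4.15 CPM, while A673 had 2.77 to 3.29 and then 5.85 to 7.96 CPM (-4.12 ± 0.70, adjusted p = 0.000248). FABP3, a fatty acid carrier, and C1QTNF3, an adipokine, fell in TC32 from 71.2 to 80.0 and from 24.8 to 35.6 CPM and stayed under 3 CPM in A673 (-3.86 and -3.47). STXBP6 (-4.03), FBLN5 (-3.24) and RGS4 (-3.03) fell in TC32 as well. LOXL2, a collagen cross-linking oxidase, rose in A673 from 27.9 to 37.8 CPM up to 79.4 to 88.1 CPM and was under 5 CPM in TC32 (-3.18 ± 0.94, adjusted p = 0.0172), a call lost without either replicate 2 of TC32. For the desmosomal gene PKP1, the keratin gene KRT17 and COL21A1, the treated TC32 libraries held 2, 4 and 9 counts in all. Their fitted differences rest on so few counts that only levels are given: PKP1 was at 0.888 to 1.20 CPM in TC32 vehicle and 1037 to 1141 CPM in A673.

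Of all called differences, 3.44% came from genes that TC32 alone expressed at 1 CPM or more and 3.04% from genes of A673 alone, and those named by the rule rested on few counts. S100A6, a calcium-binding protein of TC32, fell there from 146 to 175 CPM down to 43.5 to 63.4 CPM, and the treated A673 libraries held 2 counts in all. MSC, a repressor of muscle genes expressed in A673, rose there from 83.4 to 113 CPM up to 157 to 171 CPM, with 12 counts in all in treated TC32. SERTM1 and WWC1 likewise had 16 and 13 counts in the thinnest TC32 group. FRG2, which has near-identical copies, PPM1E and ZNF354C lost their call in 7, 8 and 10 of the 12 fits that left out a library.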

How the data were processed

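The authors deposited 1 table of raw counts per gene for all 30 libraries, made from poly(A)-selected RNA sequenced as paired reads on an Illumina NovaSeq, per the labels' protocols. The submitters' processing notes name STAR, Trim Galore, FastQC and DESeq2, and the builds GRCh38 and hg38. No version, counter, annotation or strand setting is given in the sources used here, so overlapping and antisense genes cannot be told apart. A gene name table gave symbols for 33113 of 33538 gene IDs, and positions, lengths and GC content came from GENCODE 29 (GRCh38, 33456 IDs found).

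All libraries were fitted together in edgeR 4.0.16 (R 4.3.3, limma 3.58.1): filterByExpr, TMM factors, a quasi-likelihood test and Benjamini-Hochberg adjustment over the 16713 genes tested. A prior count of 2 was used for log2 CPM values only, and the test kept edgeR's default. Standard errors are the log2 value divided by the square root of F. The response difference is the interaction of line and treatment. Genes named are a fixed set of 14, the 15 highest and 15 lowest differences, 10 opposite-direction genes each way, 5 one-line genes each way and up to 4 per list from 46 lists; others named are members of those lists and were chosen after their values were seen. The members and lists were chosen with earlier results of these data known. The fit was tested on simulated data. Alternatives were other normalisations, filters, tests (DESeq2 1.42.0, limma-voom), a replicate block, single libraries left out and stricter thresholds. Added after seeing the data were offsets per library for transcript length and GC content. So were fits without A673 vehicle replicates 1 and 2 or without the 2 libraries that stood furthest apart. Promoter sequences are those of RefSeq on GRCh38.p14. A few genes that the rule names are not reported here.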

Additional observations from a re-analysis of the deposited data

Results flagged for a closer look

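The responses of the lines differed by a test of the interaction for 2076 genes that were higher and 1969 that were lower in TC32, and 376 genes were called in opposite directions. Of the opposite-direction genes named by the rule, those that rose in TC32 and fell in A673 differed on the log2 scale by 4.95 (FLRT1), 2.89 (ANKRD24), 2.73 (TCP11L2), 2.68 (POMK), 2.56 (TEX19), 2.48 (HDAC9), 2.44 (TLR5), 2.24 (APC2), 2.21 (CPEB2) and 2.00 (DCHS1). Those that fell in TC32 and rose in A673 differed by -3.41 (DOK5), -2.64 (TYW1B), -2.26 (S100A10), -2.10 (SOCS1), -1.88 (ACTN2), -1.83 (DDAH1), -1.71 (MATN2), -1.60 (EVA1B) and -1.56 (NDUFB2). Each of these passed the interaction test, and S100A10 lost its call with limma-voom. Without A673 vehicle replicate 3 the difference of POMK was 1.14 and its A673 response was not called (0.29, adjusted p = 0.441), and the A673 responses of DCHS1, S100A10 and SOCS1 lost their call. With that replicate as the only A673 vehicle library the difference of FLRT1 was 2.54 and its A673 response was not called (-1.04, adjusted p = 0.2), and the A673 responses of ANKRD24, TCP11L2, TEX19, TLR5, APC2, S100A10, SOCS1, DDAH1 and MATN2 lost their call.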

How the results depend on the processing

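Leaving out 1 library at a time moved the count of genes higher in TC32 between 1559 and 2356 and lower between 1460 and 2192, the TC32 response between 3080 and 3967 higher and 3165 and 4024 lower, the A673 response between 2035 and 2789 and between 2381 and 3224, the vehicle difference between 5128 and 5480 and between 5404 and 5890, and the opposite-direction genes between 251 and 472. At an adjusted p under 0.01 the difference was called for 1136 higher and 1050 lower genes, the A673 response for 1620 higher and the opposite class for 124. At an adjusted p under 0.05 and a log2 size of at least 1, the difference was called for 829 and 750 genes, TC32 833 and 1848, A673 373 and 1809, the vehicle difference 3020 and 3389, and the opposite class 32. With A673 vehicle replicates 1 and 2 left out, 1947 genes fell in A673. The share of called differences that was higher was 51.3%, and moved to 57.9% with library sizes alone, where the median over all genes was 0.11, and to 57.1% without the 50 most abundant genes. RPL35 turned to 0.09 with the length and GC offsets. Treated and vehicle libraries with the same number did not deviate together (correlations of -0.02, 0.05 and -0.02 in A673 and 0.1, 0.07 and 0.03 in TC32), and with the replicate block 2204 genes were higher and 2284 lower. Of 5250 refits of 202 named genes, 4727 kept direction and side of the threshold, 509 lost their call, 13 gained one and 1 turned direction. At 3 libraries per group and total counts from 16083677, genes at a few counts per library, such as PKP1, KRT17 and DLL1, gave no usable fold change.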
